A study of Mus musculus with 9 samples.

Results

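The genes described are 10 genes of MHC class I antigen presentation and the immunoproteasome, chosen by symbol from the 55401 genes of a table of TPM (a length-normalised share of all transcripts) of RAW264.7 macrophages. They are the heavy chains H2-D1 and H2-K1 with their light chain B2m, the peptide loading genes Tap1, Tap2 and Tapbp, the immunoproteasome subunits Psmb8, Psmb9 and Psmb10, and the regulator Nlrc5. RAW264.7 is a wild-type mouse macrophage line from a tumour induced by Abelson murine leukemia virus in a male mouse, so all groups come from 1 transformed line. It was treated with DMSO, DMSO+LPS or LPS+Skatole, called DMSO, LPS and LPS + Ska below, with 3 samples in each group numbered 5, 6 and 7. LPS is lipopolysaccharide, a bacterial stimulus of macrophages, and skatole is an indole compound. Treatment lasted 24 h by the labels and by the results text of the study, and longer by its methods text. No group had skatole without LPS, the label of the LPS + Ska group names no DMSO, and nothing in the sources says that the samples came from separate cultures. The p-values below therefore measure the spread between these samples, which may be technical.

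MHC class I molecules show peptides made inside the cell to CD8 T cells. The proteasome cuts proteins into peptides, the TAP1-TAP2 transporter carries the peptides into the endoplasmic reticulum, and tapasin (Tapbp) holds the empty heavy chain and beta-2 microglobulin (B2m) at the transporter until a peptide binds. Psmb8, Psmb9 and Psmb10 are the inducible catalytic subunits that take the place of Psmb5, Psmb6 and Psmb7 in newly built proteasomes, and interferons are their classical inducers. NLRC5 is the transactivator of class I genes, as CIITA is of class II genes. In macrophages the pathway is known to be induced by interferons, including the type I interferon made after LPS.

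The columns of the LPS and LPS + Ska groups were tied, which bears on every error given here. Among genes above 0 in replicates 6 and 7, replicate 5 lay exactly midway between them in all 17950 genes of the LPS group and all 17658 genes of the LPS + Ska group, to within 5e-06 TPM. In DMSO no column was the mean of the other two in more than 0.0614% of genes. Each of the LPS and LPS + Ska groups therefore holds at most 2 independent values a gene. As an alternative, 2 values a gene were fitted in these groups, replicate 5 plus and minus 0.5 times its distance to replicates 6 and 7, and are called recovered values. The factor is an assumption that the midpoint alone does not give. Means below are given with the SD over 3 columns a group, as deposited.

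The macrophage label was checked against 8 macrophage markers, all of which were tested, with a lowest group mean of 19.7 TPM. Lyz2, Csf1r and Spi1, 3 of the 8, fell in LPS compared with DMSO, with log2 changes of -1.05, -0.67 and -0.81, and their part in the results below was not tested. The 8 markers summed to between 12400 and 13370 TPM in DMSO columns, 7341 and 7739 in LPS and 13670 and 13930 in LPS + Ska, a range that Lyz2 dominates. Of 18 markers of T and B cells, fibroblasts, epithelium, dendritic cells and neutrophils, only S100a8 had a mean TPM of at least 1 over the 9 columns. The 6 T and B cell markers summed to at most 0.672 TPM in any column, the 6 fibroblast and epithelial markers to at most 0.462 and the 6 dendritic cell and neutrophil markers to at most 4.70. Cd3e, Cd8a, Epcam and Ly6g were listed at 0 in every column. In bulk RNA, fewer cells of a type and less RNA per cell cannot be told apart. The columns summed to between 999895 and 1000145 TPM, with 12498 to 13012 genes at 1 TPM or more, and the sequencing depth behind them is unknown.

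Sequence before the start site is shown for B2m, the only member that rose with LPS, for Psmb10, a member that fell, and for H2-K1, a heavy chain that did neither. The stretches come from the RefSeq promoter table (build GRCm38.p6), in which 8 of the 10 members had an entry, Tap2 and Nlrc5 being the others. They are read on the strand of the gene and stop before the first annotated exon. Capitals mark matches to 4 motifs, each searched on both strands in windows of 300 bases, from 250 before to 50 after the start. These are an interferon-response-element-like motif (a pair of GAAA runs with 2 bases between them), a kappa-B-like motif (a GGGA run and a TTTCC run with 1 base between them), a CCAAT box and TGACG, the core of a cAMP response element.
B2m, chr2:122147437-122147685, plus strand, 249 bases: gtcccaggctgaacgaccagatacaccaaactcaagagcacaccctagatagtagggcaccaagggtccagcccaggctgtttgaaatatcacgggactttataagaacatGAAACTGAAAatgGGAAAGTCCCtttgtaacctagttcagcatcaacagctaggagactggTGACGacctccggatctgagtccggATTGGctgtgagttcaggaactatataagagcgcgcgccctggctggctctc
H2-K1, chr17:34000348-34000597, minus strand, 250 bases: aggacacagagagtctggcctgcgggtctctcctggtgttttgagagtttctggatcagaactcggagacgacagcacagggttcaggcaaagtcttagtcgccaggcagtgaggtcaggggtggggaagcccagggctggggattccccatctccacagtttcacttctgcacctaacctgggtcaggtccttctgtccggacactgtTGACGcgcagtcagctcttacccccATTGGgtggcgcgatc
Psmb10, chr8:105938445-105938642, minus strand, 198 bases: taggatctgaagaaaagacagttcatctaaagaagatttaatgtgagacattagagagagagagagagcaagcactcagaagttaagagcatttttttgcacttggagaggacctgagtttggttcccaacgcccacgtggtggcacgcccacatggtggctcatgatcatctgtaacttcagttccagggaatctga

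In the B2m stretch the interferon-like match lies from -139 to -130 and the kappa-B-like match from -126 to -117, counted from the RefSeq start. Of the 32851 RefSeq promoter windows, 3.44% held the first motif and 0.411% the second. B2m was the only one of the 8 members with an exact match to either. CCAAT boxes, present in 37.4% of all windows, were found in B2m, H2-D1, H2-K1, Tapbp, Tap1 and Psmb9. The TGACG core, present in 20.8% of windows, was found in B2m, H2-D1, H2-K1, Tap1 and Psmb9. Psmb8 held neither of these but had a match to 1 further motif, the GAS-like TTCNNNGAA, from -97 to -89, as did 8.30% of windows. No match to these motifs was found in the Psmb10 window. The windows follow RefSeq starts, which can differ from the annotated extents (GENCODE) given for the genes below. Those of H2-D1, Tapbp, Psmb8 and Psmb9 lie wholly inside the annotated gene, and the RefSeq start of Psmb10 lies inside it too. For these 5 genes the windows do not describe all the sequence before the annotated start. A match is a run of letters in a window, not a site of binding. Only these exact letters were searched, so a window without a match may hold a variant of a motif. The printed H2-K1 stretch holds ggggattcccc, close to the kappa-B-like letters, and tttcacttc, close to the interferon-like letters on the other strand. Neither was counted, so B2m and H2-K1 differ here in exact letters only. Whether matches go with the changes of the genes was not tested.

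Of the 10 members, 1 rose and 3 fell in LPS compared with DMSO, against 32.7% of all 12819 tested genes called in either direction, 12.7% higher and 20% lower. A gene is said to have risen or fallen, or to be called, at an adjusted p below 0.05 with a fold change above 1.5 or below 0.67. In LPS + Ska compared with LPS, 1 member fell and none rose, against 9.49% of tested genes called (3.35% higher and 6.14% lower). None was higher at an unadjusted p below 0.05 either (limma). In LPS + Ska compared with DMSO, 1 rose and 3 fell, against 36.7% (11.4% higher and 25.3% lower). With no fold limit, 6, 4 and 5 of the 10 members passed the adjusted p in the 3 comparisons, against 60.3%, 28.6% and 63.3% of tested genes. The columns of the groups did not overlap in 8, 6 and 5 members, against 68.9%, 51.2% and 64.8% of tested genes. In no comparison did the count of members stand far from these shares. The median log2 fold change of the members was 0.00, -0.23 and -0.23 in the 3 comparisons, beside -0.07, -0.10 and -0.17 over all tested genes. Scaling the columns by median ratios brought the members' medians to 0.08, -0.13 and -0.06 and the all-gene medians to 0.01, 0.00 and -0.01, and the share of called genes that were higher went from 35.3% to 52% in LPS + Ska compared with LPS and from 31% to 48.4% in LPS + Ska compared with DMSO. The called members and their directions were the same with recovered values (32.5%, 7.82% and 36.3% of tested genes called) and with median-ratio scaling (32.1%, 8.82% and 34.7%). LPS + Ska and LPS were both set against the same DMSO columns, so these comparisons are not separate evidence.

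**Figure D1:**
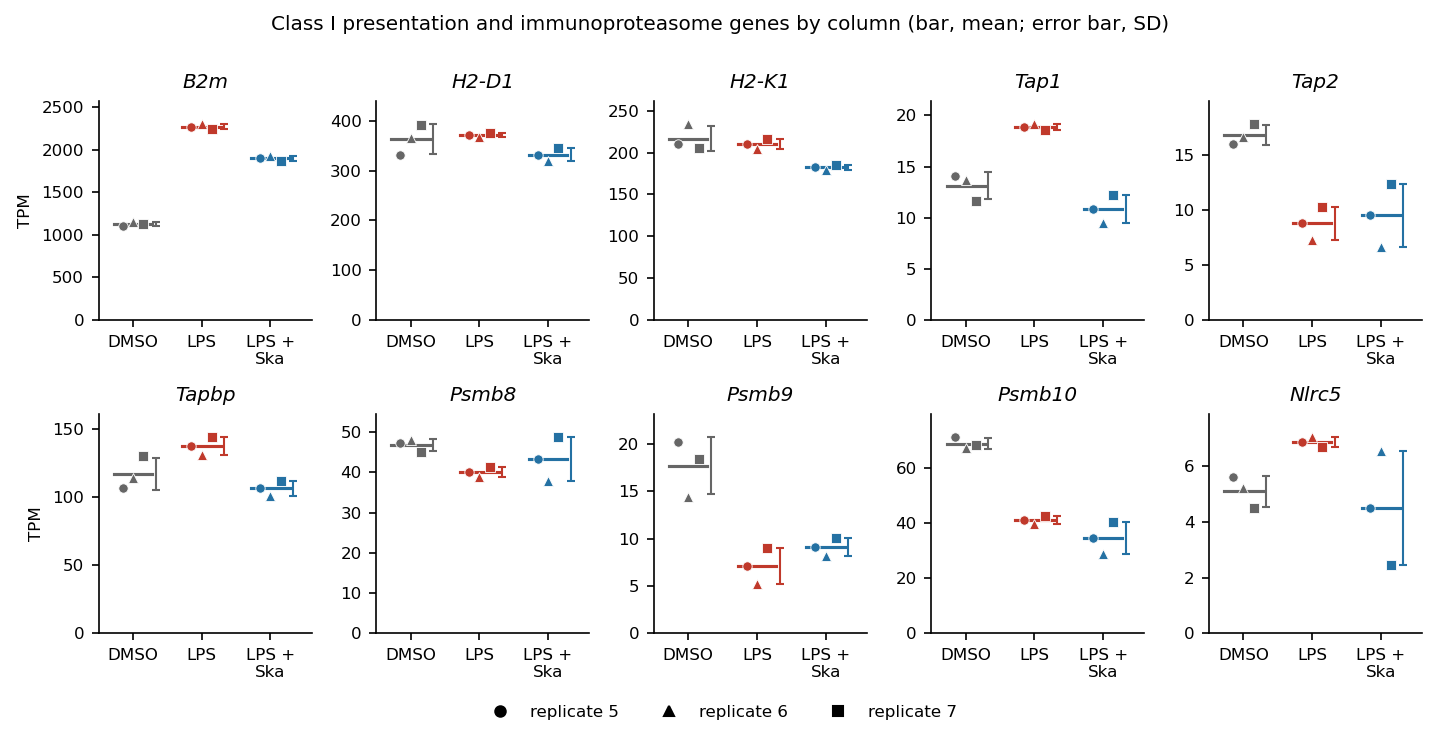
TPM (y axis, from 0) of each of the 10 members in every column of the DMSO, LPS and LPS + Ska groups (x axis), with a bar at the mean and an error bar of 1 SD over 3 columns. B2m stands at 1106 to 1148 TPM in DMSO and 2246 to 2300 in LPS, whereas Psmb9, Psmb10 and Tap2 are highest in DMSO.

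The levels, which TPM gives per length of transcript, spanned more than 2 orders of magnitude. B2m was the highest in every group, followed by H2-D1, H2-K1 and Tapbp, with no overlap of columns between these neighbours. In DMSO the order went on with Psmb10 (68.8 ± 2.03 TPM, SD, n = 3 columns), Psmb8 (46.8 ± 1.51), Psmb9 (17.7 ± 3.0), Tap2 (16.8 ± 0.897), Tap1 (13.1 ± 1.31) and Nlrc5 (5.10 ± 0.557), where Psmb9 and Tap2 overlapped. In LPS, Tap1 (18.9 ± 0.260 TPM) stood above Tap2 (8.75 ± 1.48), Psmb9 (7.12 ± 1.87) and Nlrc5 (6.85 ± 0.172), and the last 3 overlapped their neighbours. Psmb10 and Psmb8 overlapped in LPS and in LPS + Ska. In LPS + Ska, Tap1, Tap2 and Psmb9 overlapped each other in turn, at 10.9 ± 1.37, 9.50 ± 2.86 and 9.15 ± 0.965 TPM.

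B2m, the invariant light chain of every class I molecule, lies at chr2:122147686-122153083 on the plus strand (GRCm38), and none of its annotated exons overlaps another gene. It stood at 1106, 1148 and 1129 TPM in DMSO, at 2273, 2300 and 2246 in LPS and at 1901, 1930 and 1872 in LPS + Ska. The 3 groups did not overlap. B2m rose in LPS by 1.01 on the log2 scale of TPM + 1 (SE 0.04, 95% confidence interval 0.92 to 1.10, adjusted p = 1.44e-07). In LPS + Ska it was 0.26 below LPS (SE 0.04, limma adjusted p = 0.00232, or 0.0163 with recovered values), which is inside the fold limit. Under median-ratio scaling this difference was -0.16 (adjusted p = 0.0249). B2m stood 0.75 above DMSO in LPS + Ska (adjusted p = 7.65e-07).

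H2-D1 and H2-K1 are the heavy chains of the classical class I molecules, the chains that bind the peptide. RAW264.7 is known to descend from a BALB/c mouse, whose class I alleles differ from those of the C57BL/6J reference genome, and the part of this in the levels was not tested. H2-D1 (chr17:35262730-35267499, plus strand) stood at 331, 366 and 391 TPM in DMSO, 371, 368 and 375 in LPS and 332, 320 and 345 in LPS + Ska. The LPS columns lay within the range of the DMSO columns, and the LPS + Ska columns lay below the LPS columns and overlapped DMSO. The log2 difference was 0.04 in LPS compared with DMSO (95% confidence interval -0.11 to 0.18, adjusted p = 0.638) and -0.16 in LPS + Ska compared with LPS (-0.30 to -0.02, adjusted p = 0.0881). H2-K1 (chr17:33996017-34000347, minus strand) stood at 210, 234 and 206 TPM in DMSO, 210, 204 and 216 in LPS and 183, 180 and 186 in LPS + Ska. Its LPS + Ska columns were below all the others. They were 0.20 below LPS on the log2 scale (SE 0.06, adjusted p = 0.0291, or 0.0977 with recovered values) and 0.24 below DMSO (adjusted p = 0.00457), inside the fold limit in both. Under median-ratio scaling these differences were -0.10 (adjusted p = 0.258) and -0.06 (adjusted p = 0.419).

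The ratio of B2m to the sum of H2-D1 and H2-K1 went from 2.04, 1.91 and 1.89 in the DMSO columns to 3.91, 4.02 and 3.80 in LPS. It was 3.69, 3.87 and 3.53 in LPS + Ska. This ratio was chosen after the values had been seen and was not tested. LPS and LPS + Ska overlapped in it, and neither reached down to DMSO.

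Class I heavy chain genes are close copies of each other, so reads can be shared between them. Of the 50-base words of H2-D1, 12.8% occur in another gene (H2-Q1, H2-K1 and H2-Q7 most often), and 9.63% of those of H2-K1. For H2-T22 the share was 53.5%, for H2-Q4 36.4%, for H2-T23 14.5% and for H2-T24 3.17%. The TPM of 13 heavy chain genes, H2-D1, H2-K1 and the listed H2-Q and H2-T genes, was therefore also summed in each column. The sum was 704 ± 33.7 TPM in DMSO, 778 ± 8.18 in LPS and 642 ± 21.7 in LPS + Ska (SD, n = 3 columns). No groups overlapped, and the exact two-sided permutation test gave p = 0.1 in each comparison, the smallest that 3 columns against 3 allow (0.1 after adjustment over the 3 comparisons). That test counts the tied columns of LPS and LPS + Ska as 3 separate values, which they are not, so no conclusion is drawn from it. Under median-ratio scaling the log2 ratio of LPS + Ska to DMSO turned from -0.13 to 0.05. The genes in the sum did not move together. From DMSO to LPS the means of H2-T23 and H2-T24 went from 11.6 to 59.0 and from 2.61 to 63.0 TPM. Those of H2-D1 and H2-K1 went from 363 to 371 and from 217 to 210 TPM, and H2-Q1, H2-Q2, H2-Q4 and H2-Q10 fell.

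**Figure D2:**
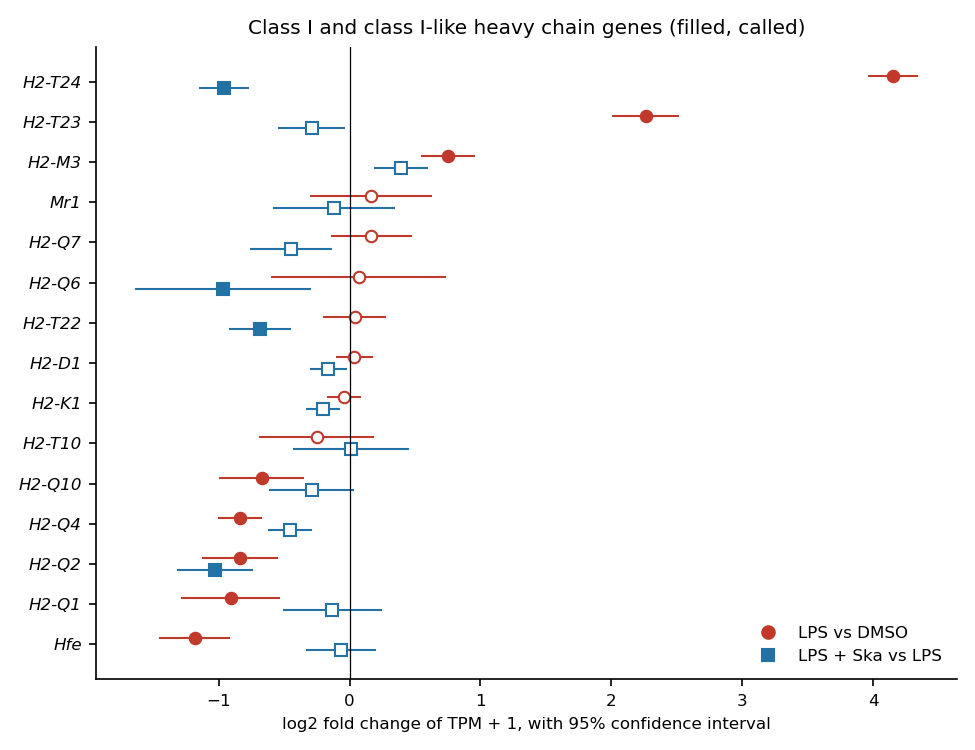
Log2 fold change of TPM + 1 (x axis) with its 95% confidence interval for each tested class I or class I-like heavy chain gene (y axis), in LPS compared with DMSO and in LPS + Ska compared with LPS; filled symbols are called genes. H2-T24 and H2-T23 stand at 4.15 and 2.26 with LPS, whereas H2-D1 and H2-K1 stand at 0.04 and -0.04.

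Below H2-D1 and H2-K1 in level, 13 of the 20 other listed class I and class I-like heavy chain genes were tested, H2-M3, Mr1 and Hfe among them. In LPS compared with DMSO, 3 of them rose and 5 fell, against 12.7% of all tested genes higher and 20% lower. Their median log2 fold change was 0.04. H2-T24, a nonclassical class I gene, stood at 2.71, 2.89 and 2.23 TPM in DMSO, 63.0, 63.0 and 62.9 in LPS and 32.0, 33.3 and 30.7 in LPS + Ska. It rose by 4.15 with LPS (SE 0.08, adjusted p = 2.12e-09) and fell by 0.96 from LPS to LPS + Ska (adjusted p = 0.000122). H2-T23, which encodes Qa-1, a ligand of the NKG2A receptor, rose from 11.8, 13.3 and 9.58 TPM to 59.0, 53.3 and 64.6. Its difference between LPS + Ska and LPS was -0.29 (adjusted p = 0.0872). H2-M3, whose product presents formylated peptides, rose by 0.76 with LPS, and in LPS + Ska it was 1.15 above DMSO (adjusted p = 6.08e-06).

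The heavy chain genes that fell with LPS were H2-Q1, H2-Q2, H2-Q4, H2-Q10 and Hfe, a class I-like gene of iron balance, by 0.67 to 1.18. In LPS + Ska compared with LPS, 4 of the 13 fell and none rose, against 6.14% of all tested genes lower and 3.35% higher. The 4 were H2-Q2, H2-Q6, H2-T22 and H2-T24, and since such genes can share reads their calls are not separate. At an unadjusted p below 0.05, 1 of the 13 was higher there, H2-M3, by 0.39 (limma adjusted p = 0.0129, or 0.055 with recovered values). H2-Q2 went from 10.2, 10.7 and 9.70 TPM in LPS to 4.54, 3.66 and 5.41 in LPS + Ska, a fall of 1.03 (adjusted p = 0.000739). The call of H2-Q6 was lost under median-ratio scaling. The share of H2-D1 and H2-K1 in the summed heavy chain TPM was 81.4%, 82.6% and 82.9% in DMSO, 74.7%, 74.4% and 75.1% in LPS and 80.2%, 80.5% and 79.9% in LPS + Ska. The 3 groups did not overlap in this share, which was computed after the values had been seen and was not tested.

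The peptide transporter is a dimer of TAP1 and TAP2, and its 2 genes had different orders of groups. Tap1 (chr17:34187553-34197225, plus strand) stood at 14.1, 13.7 and 11.6 TPM in DMSO, at 18.9, 19.1 and 18.6 in LPS and at 10.9, 9.51 and 12.3 in LPS + Ska. LPS was above both other groups, which overlapped. Tap1 was 0.50 higher in LPS than in DMSO on the log2 scale (SE 0.11, adjusted p = 0.00282), inside the fold limit. It fell by 0.75 in LPS + Ska compared with LPS (SE 0.11, 95% confidence interval -0.99 to -0.51, limma adjusted p = 0.00123, or 0.00726 with recovered values). Tap1 was the only member called in that comparison. Against DMSO the difference was -0.25 (adjusted p = 0.0622).

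Tap2 (chr17:34203527-34216321, plus strand) stood at 16.0, 16.6 and 17.8 TPM in DMSO, 8.75, 7.27 and 10.2 in LPS and 9.50, 6.65 and 12.4 in LPS + Ska. The DMSO columns were above all the others, and the other two groups overlapped. Tap2 fell by 0.88 with LPS (SE 0.19, adjusted p = 0.00313) and was 0.79 below DMSO in LPS + Ska (adjusted p = 0.00491). Between LPS + Ska and LPS the difference was 0.08, with a 95% confidence interval of -0.35 to 0.51 (adjusted p = 0.778). The ratio of Tap1 to Tap2 was 0.881, 0.825 and 0.656 in DMSO, 2.16, 2.63 and 1.82 in LPS and 1.15, 1.43 and 0.992 in LPS + Ska. In this ratio, chosen after the values had been seen and not tested, the 3 groups did not overlap and LPS + Ska lay between the others. Of the annotated exonic bases of Tap2, 18.5% lie on the strand opposite to exons of the neighbouring genes Gm15821 and Gm20496. The kit is not stated to keep the strand, so reads of such bases cannot be told apart.

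Tapbp encodes tapasin, the bridge between the heavy chain and the transporter. It stood at 107, 114 and 130 TPM in DMSO, 137, 131 and 144 in LPS and 107, 101 and 112 in LPS + Ska. LPS was above both other groups, by little in the case of DMSO replicate 7. The difference was 0.23 in LPS compared with DMSO (SE 0.08, limma adjusted p = 0.0265, or 0.046 with recovered values). It was -0.36 in LPS + Ska compared with LPS (SE 0.08, adjusted p = 0.00868, or 0.0338 with recovered values). Both were inside the fold limits. Of the exonic bases of Tapbp (chr17:33915899-33929292, plus strand), 29.0% are shared with Gm19412 or Zbtb22. Its relative Tapbpl, which edits the peptides of class I molecules, fell by 0.79 with LPS, from 4.62, 4.97 and 5.76 TPM to 2.54, 2.85 and 2.23 (adjusted p = 0.00234). The general chaperones of the loading complex were abundant and not called with LPS, with log2 differences of -0.39 for Calr, 0.45 for Canx and 0.24 for Pdia3. Of these 4 chaperones none was called in LPS + Ska compared with LPS, and none passed an unadjusted p below 0.05 there (limma).

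**Figure D3:**
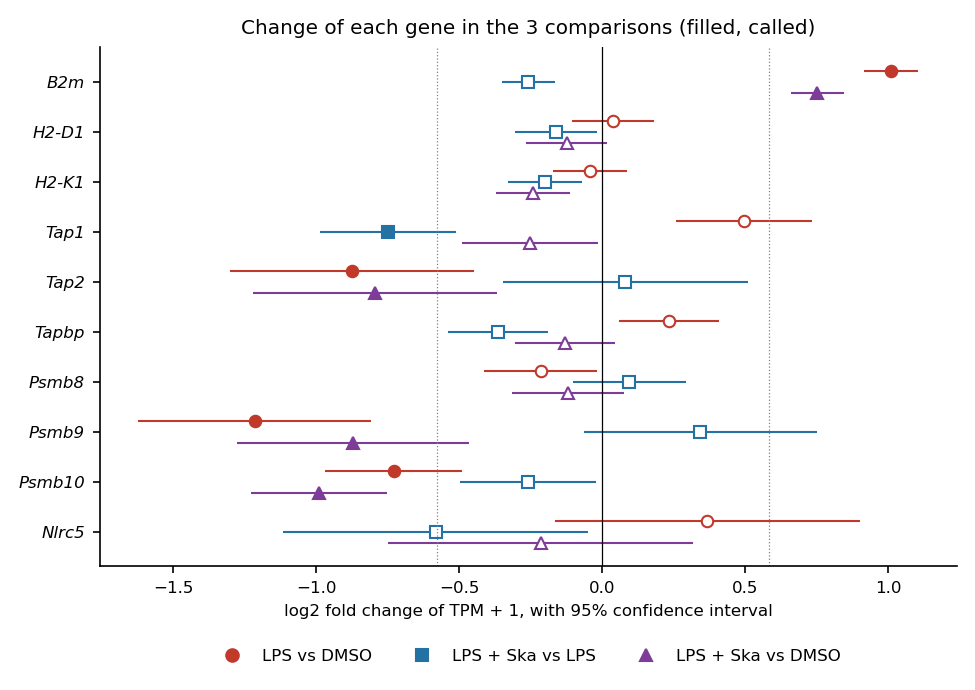
Log2 fold change of TPM + 1 (x axis) with its 95% confidence interval for the 10 members (y axis) in the 3 comparisons; filled symbols are called and dotted lines are the fold limits. The filled symbols are B2m, Tap2, Psmb9 and Psmb10 in both comparisons with DMSO and Tap1, at -0.75, in LPS + Ska compared with LPS.

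The 3 inducible proteasome subunits were not higher in LPS. Psmb9 (LMP2; chr17:34181987-34187764, minus strand) stood at 20.2, 14.4 and 18.4 TPM in DMSO, 7.12, 5.25 and 8.98 in LPS and 9.15, 8.18 and 10.1 in LPS + Ska. All DMSO columns were above the others, and LPS and LPS + Ska overlapped. Psmb9 fell by 1.22 with LPS (SE 0.18, 95% confidence interval -1.62 to -0.81, adjusted p = 0.000333) and was 0.87 below DMSO in LPS + Ska (adjusted p = 0.00218). Between LPS + Ska and LPS the difference was 0.34 (95% confidence interval -0.06 to 0.75, adjusted p = 0.185).

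Psmb10 (MECL-1; chr8:105935735-105938444, minus strand) is the only one of the 3 that lies outside the MHC, and none of its exons overlaps another gene. It stood at 71.0, 67.0 and 68.4 TPM in DMSO, 41.1, 39.8 and 42.4 in LPS and 34.5, 28.6 and 40.3 in LPS + Ska. DMSO stood apart, and LPS + Ska replicate 7 lay within the LPS columns. Psmb10 fell by 0.73 with LPS (SE 0.11, adjusted p = 0.000289) and stood 0.99 below DMSO in LPS + Ska (adjusted p = 3.73e-05). The difference between LPS + Ska and LPS was -0.26 (adjusted p = 0.0971). Psmb8 (LMP7; chr17:34197721-34201454, plus strand) stood at 47.2, 48.0 and 45.1 TPM in DMSO, 40.2, 38.9 and 41.4 in LPS and 43.2, 37.7 and 48.6 in LPS + Ska. The LPS + Ska columns spanned those of both other groups. No comparison called it, the differences being -0.22 (adjusted p = 0.0569), 0.10 (0.445) and -0.12 (0.255) in the order of comparisons above.

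Each inducible subunit was set against the constitutive subunit whose place it takes, as its share of the summed TPM of the pair, which does not depend on scaling between columns. For Psmb10 of Psmb10 and Psmb7 the share was 22.5% ± 0.989 in DMSO, 17.7% ± 0.503 in LPS and 14.7% ± 0.238 in LPS + Ska (SD, n = 3 columns). These 3 groups did not overlap. For Psmb9 of Psmb9 and Psmb6 it was 5.94% ± 0.985, 3.47% ± 0.678 and 4.22% ± 0.441, with DMSO above both other groups, which overlapped. For Psmb8 of Psmb8 and Psmb5 it was 35.8% ± 1.86, 42.4% ± 2.84 and 31.4% ± 2.38. Here LPS was above both other groups, and DMSO and LPS + Ska overlapped. The exact two-sided permutation test gave p = 0.1 for the 7 comparisons without overlap, the smallest it can give, and 0.2 for the others (0.129 and 0.2 after adjustment over 9). Here too the tied columns of LPS and LPS + Ska were counted as 3 separate values, so no conclusion is drawn from these p-values.

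The higher Psmb8 share in LPS went with a lower Psmb5, not with a higher Psmb8. Psmb5, the constitutive chymotrypsin-like subunit, stood at 83.7, 80.1 and 88.4 TPM in DMSO, 54.9, 46.9 and 62.9 in LPS and 95.8, 73.6 and 118 in LPS + Ska. It fell by 0.61 with LPS (adjusted p = 0.00807), a call lost under median-ratio scaling (-0.53), and rose by 0.78 in LPS + Ska compared with LPS (SE 0.16, adjusted p = 0.00697). Psmb6 and Psmb7 were not called in any comparison, but all their LPS columns lay below DMSO. Their log2 differences with LPS were -0.51 (limma adjusted p = 0.00648) and -0.305 (0.0178), inside the fold limit. Under median-ratio scaling these were -0.43 (0.0252) and -0.22 (0.0986). The spread of the 3 constitutive subunits was widest in LPS + Ska, where Psmb6 ran from 166 to 255 TPM.

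**Figure D4:**
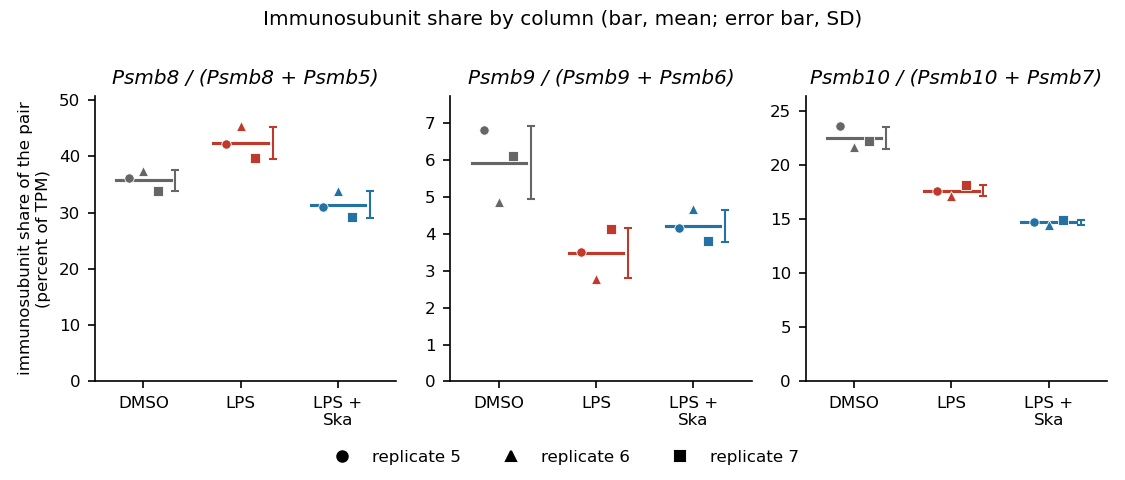
Share of the inducible subunit in the summed TPM of each catalytic pair (y axis, percent, from 0) in every column of the 3 groups (x axis), with a bar at the mean and an error bar of 1 SD over 3 columns. The Psmb10 share steps down from 22.5% to 17.7% and 14.7%, while the Psmb8 share is highest in LPS.

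The rest of the proteasome was described from lists of its genes. Of 11 other subunits of the 20S core, 2 rose with LPS, Psma3 (by 0.72) and Psma6 (by 0.88), and none fell (1 was lower at an unadjusted p below 0.05, limma). Over all tested genes 12.7% rose and 20% fell with LPS, and 9.49% were called in LPS + Ska compared with LPS. In LPS + Ska compared with LPS only Psma3 was called (Psma5 too under median-ratio scaling), from 132, 131 and 133 TPM to 214, 218 and 210 (0.69 higher, adjusted p = 9.4e-05). Psme1 and Psme2, the interferon-inducible PA28 activator subunits, were not called in any comparison, with log2 differences of -0.25 and -0.15 with LPS. Psme4, the PA200 activator, rose by 0.83 with LPS. Psmg2, an assembly chaperone, was called only in LPS + Ska compared with DMSO (0.59 higher). Of 7 peptidases that trim or destroy peptides, Tpp2 rose with LPS (by 0.81) and Npepps fell in LPS + Ska compared with LPS (log2 change -0.62, a call lost under median-ratio scaling). Erap1, the trimming enzyme of the endoplasmic reticulum, stood at 40.1, 38.3 and 44.6 TPM in DMSO, 50.6, 48.9 and 52.3 in LPS and 42.5, 47.0 and 37.9 in LPS + Ska and was not called.

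Psmb9, Tap1, Psmb8 and Tap2 lie side by side in the class II region of the MHC, and Psmb9 and Tap1 are transcribed away from each other. Their RefSeq start sites are 226 bases apart, and the 300-base windows around them share 275 bases. In LPS compared with DMSO these neighbours stood at -1.22 (Psmb9) and 0.50 (Tap1). In LPS + Ska compared with LPS they stood at 0.34 and -0.75. The ratio of Tap1 to Psmb9 was 0.696, 0.950 and 0.632 in DMSO, 2.65, 3.65 and 2.07 in LPS and 1.19, 1.16 and 1.21 in LPS + Ska, with no overlap of groups. It was chosen after the values had been seen and was not tested. The annotated exons of the 2 genes overlap on opposite strands over 212 bases, 3.87% of the exonic bases of Tap1 and 5.79% of those of Psmb9. Of the exonic bases of Psmb8, 14.7% overlap Gm20496 on the opposite strand.

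**Figure D5:**
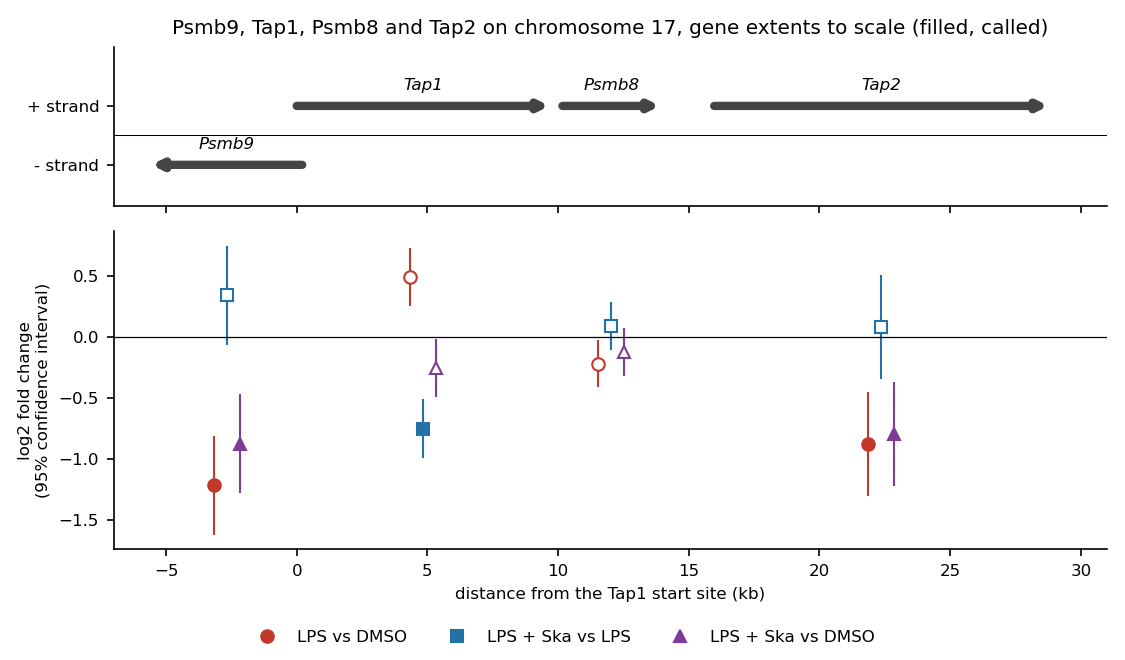
Extents and direction of Psmb9, Tap1, Psmb8 and Tap2 (upper part, arrows) by distance from the Tap1 start site in kb (x axis), and below each gene its log2 fold change with 95% confidence interval (y axis) in the 3 comparisons; filled symbols are called. In LPS compared with DMSO, Tap1 stands at 0.50 and its neighbour Psmb9 at -1.22.

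Nlrc5 (chr8:94434356-94527272, plus strand) was the lowest of the members. It stood at 5.59, 5.21 and 4.49 TPM in DMSO, 6.85, 7.02 and 6.68 in LPS and 4.51, 6.55 and 2.46 in LPS + Ska. The LPS columns were above all the others, and the LPS + Ska columns spread by more than the distance between the groups. The differences were 0.37 with LPS (95% confidence interval -0.17 to 0.90, adjusted p = 0.206) and -0.58 in LPS + Ska compared with LPS (-1.12 to -0.05, adjusted p = 0.0965). Without LPS + Ska replicate 6 the second was -0.85 and was called (limma adjusted p = 0.0105), but over all alternatives it ranged from -0.85 to -0.28. Replicates 6 and 7 of LPS + Ska lie equally far from replicate 5, on either side, so neither can be called the outlying value. NLRC5 acts through the factors that bind the SXY module of class I promoters, the RFX, NF-Y and CREB proteins. None of their 7 genes was called by limma in LPS + Ska compared with LPS, against 9.49% of all tested genes. At an unadjusted p below 0.05, 3 were lower, of which Rfx5 (-0.56, adjusted p = 0.00196) and Nfya (-0.22, adjusted p = 0.0393) passed the adjusted p. Nfya did not pass it with recovered values (0.0864) or under median-ratio scaling (-0.12, adjusted p = 0.159). In LPS + Ska compared with DMSO, Rfx5, Rfxap and Nfya were called lower, with log2 changes of -0.65, -0.68 and -0.79, and of these 3 only Nfya was called under median-ratio scaling. Rfxap was the only one called with LPS, lower by 0.58, and that call was lost with recovered values and with median-ratio scaling.

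Genes of interferon signalling, upstream of this pathway as background, moved in both directions with LPS. Of 14 tested, 4 rose (Irf7, Irf9 and Jak2 among them) and 4 fell (Irf8, Ifnar2, Tyk2 and Ifnar1, the last not under median-ratio scaling). Over all tested genes 12.7% rose and 20% fell with LPS. Irf7, the master regulator of type I interferon genes, stood at 5.26, 2.29 and 2.51 TPM in DMSO, 96.1, 87.4 and 105 in LPS and 38.0, 29.8 and 46.3 in LPS + Ska. The 3 groups did not overlap. Irf7 rose by 4.54 with LPS (SE 0.24, adjusted p = 5.68e-07) and fell by 1.33 from LPS to LPS + Ska (adjusted p = 0.0037). Stat2, a partner of Irf9 in interferon signalling, fell in the same comparison by 0.85 (adjusted p = 0.00631). Irf1, a factor known to drive Tap1 and Psmb9, stood at 14.4, 12.8 and 14.9 TPM in DMSO, 9.14, 9.39 and 8.90 in LPS and 7.15, 8.05 and 6.25 in LPS + Ska. It was 0.56 below DMSO in LPS (adjusted p = 0.00124, inside the fold limit) and was called lower in LPS + Ska compared with DMSO, by 0.89 (adjusted p = 6.81e-05). Irf8, a factor of the macrophage lineage, fell by 1.20 with LPS.

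Most genes of the class II pathway were near 0. Of 11, only Cd74, H2-DMa and Ctss were tested. Cd74, the invariant chain, stood at 301, 333 and 302 TPM in DMSO, 479, 498 and 461 in LPS and 286, 272 and 300 in LPS + Ska. It rose by 0.62 with LPS (adjusted p = 2.52e-05) and fell by 0.74 from LPS to LPS + Ska (adjusted p = 7.65e-05). H2-DMa, which loads class II peptides, and Ctss, a protease that trims the invariant chain, fell with LPS by 1.13 and 0.73. H2-Eb1 was listed at 0 in DMSO and LPS + Ska and at 2.59, 2.86 and 2.31 TPM in LPS, and was below the level needed for a test.

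The genes most like Tap1 across the columns were found by Pearson's r of log2(TPM + 1) over the 9 columns among 12809 other tested genes. They were Gmds (r = 0.985), Ybx3 (0.983), Nop10 (0.977), Gnat2 (0.977) and Gm6863 (0.973), and none is a gene of the lists above. All 10 members were left out of the search. As for Tap1, their means were highest in LPS and lowest in LPS + Ska, for example 24.0, 36.3 and 18.0 TPM for Gmds in DMSO, LPS and LPS + Ska. These values describe tied columns of 3 groups and carry no test.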

How the data were processed

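RNA of 9 samples of RAW264.7 cells, 3 each of DMSO, LPS and LPS + Ska, was sequenced by the authors and deposited as TPM values for 55401 Ensembl genes, of which 55141 matched a symbol. The submitters' processing notes name fastp 0.20.1, HISAT2 2.2.1, StringTie 2.0 and mm10, without roles. TPM is scaled to 1 sum in each column and keeps no depth, so no counting error can be given.

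Fold changes were fitted with limma 3.58.1 in R 4.3.3 with an intensity trend, over all 9 columns of log2(TPM + 1), for 12819 genes with a mean of at least 1 TPM; this scale understates changes of low genes. P-values were adjusted by Benjamini-Hochberg over all tested genes. Fold limits of 1.5 and 0.67 are those of the study's volcano plot. The fit was also run on simulated data, tied columns among them, but its error rates there are not given here and the calls do not rest on them. Shares and sums were compared by exact permutation tests in scipy 1.17.1. Alternatives were recovered values, median-ratio scaling, another pseudocount (0.1), another filter (mean of at least 5 TPM) or none, a rescaling that left out ribosomal protein genes and genes of the mitochondrial genome, no intensity trend, only the compared groups in the fit, an adjusted p alone, a replicate block and each replicate left out.

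Members and gene lists were chosen with earlier results of these data known. Named were all members, listed genes called in at least 1 comparison, up to 4 more a list by mean TPM, and the 5 genes most like Tap1. Single marker genes at 0 were singled out after their values were seen. Coordinates and overlaps come from GENCODE M21 (GRCm38, the build of mm10), start-site sequence from RefSeq; 3 listed symbols (H2-Q8, H2-Q9 and H2-T9) had no row, and 2 other listed genes are not reported here. Samples with the same number correlated in their deviations from the group means by -0.03 to 0.08 between DMSO and the other groups and by 0.38, 0.15 and 0.13 between LPS + Ska and LPS, where the tie leaves no separate observations; the numbers were not taken to pair samples.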

Additional observations from a re-analysis of the deposited data

How the results depend on the processing

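The depth is unknown and 2 of the groups hold at most 2 independent values, which limits every error given. Of the members' log2 fold changes under the alternatives, 580 kept their direction and side of the threshold, 13 changed sign and 7 passed the threshold that they had missed. The calls of B2m, Tap1, Tap2, Psmb9 and Psmb10 were kept with recovered values and under median-ratio scaling. Median-ratio scaling turned 4 differences that were not called, H2-K1 in LPS compared with DMSO (to 0.0409) and H2-D1 (0.0589), Tapbp (0.0521) and Psmb8 (0.0599) in LPS + Ska compared with DMSO, and in the latter also the log2 ratio of the summed heavy chains (0.0516). Recovered values with median-ratio scaling, an alternative chosen after seeing the data, turned the same 4 (0.0417, 0.0639, 0.0574 and 0.069). An adjusted p alone gave 3 members higher in LPS compared with DMSO, adding Tap1 and Tapbp, and 4 lower in LPS + Ska compared with LPS, adding H2-K1, B2m and Tapbp, and 4 lower in LPS + Ska compared with DMSO, adding H2-K1, since no fold limit applies there.

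With each replicate left out in turn, small differences that were not called changed sign. They ranged from -0.0273 (DMSO replicate 5 left out) to 0.093 for H2-D1 and from -0.0781 to 0.0138 (DMSO replicate 6 left out) for H2-K1, both in LPS compared with DMSO. Tap2 in LPS + Ska compared with LPS ranged from -0.111 to 0.292 and was also below 0, at -0.0317, with LPS replicate 6 left out. Nlrc5 in LPS + Ska compared with DMSO ranged from -0.478 to 0.0843. The members called lower in LPS + Ska compared with LPS ranged from 1 to 2, Nlrc5 being added when LPS + Ska replicate 6 was left out. The other counts of called members were the same with each replicate left out. In LPS and LPS + Ska a column left out is fixed by the 2 that stay, so no independent value is removed. Sameness with a column of these groups left out is therefore no check of the results. With the replicate number as a block, the calls over all genes went from 4189 to 4235 in LPS compared with DMSO, from 1216 to 1198 in LPS + Ska compared with LPS and from 4700 to 4729 in LPS + Ska compared with DMSO, and no call of a member changed.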
